A study of Mus musculus with 12 samples.

Results

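The kidneys of mice given 20 mg cannabidiol (CBD)/kg b.w. were compared with those of mice given 10 mg CBD/kg b.w., using 8 of the 12 libraries of the series, chosen by their treatment label, with 4 mice at each dose. CBD is a phytocannabinoid of hemp that does not intoxicate. All mice were adult males of C57BL/6J, an inbred laboratory strain, and they received CBD by daily intraperitoneal injection for 28 days. The 4 control mice were injected with the vehicle of saline and detergent and serve below as the level from which both doses depart. Each library was made from poly(A) RNA of the kidney of 1 mouse, and the hour of killing is not given in the sources used here. The comparison asks which genes differ between the doses and which genes had already reached their level at the lower dose.

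The kidney keeps its own circadian clock. In it, Bmal1 pairs with Clock or Npas2, binds E-box elements in DNA and drives the genes of the Per, Cry and Nr1d families, Ciart, Bhlhe41 and Dbp. Except for Dbp, their proteins then hold back Bmal1 and its partners. The genes of the Bmal1 arm and most genes driven by Bmal1 therefore peak at opposite times of day. Cry1, though a member of the Cry family, is listed below with the Bmal1 arm. Glucocorticoids, feeding and drugs that induce cytochrome P450 enzymes also act on many genes of the kidney tubule.

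The counts on genes summed to 15417867 to 21977253 per library at 10 mg, 16306563 to 18219064 at 20 mg and 17946614 to 23532088 in the control group. Mitochondrially encoded genes took 3.53% to 15.3% of these counts at 10 mg and 5.54% to 23.4% at 20 mg, and 4 libraries stood apart with less than 10% of their counts from these genes: mouse 2 of the control group, mice 1 and 3 at 10 mg and mouse 3 at 20 mg. The mean share was 9.66% ± 6.51 (SD, n = 4) at 10 mg and 15.9% ± 7.94 (SD, n = 4) at 20 mg, which did not exceed the scatter of the mice (two-sided exact permutation test over 70 arrangements, p = 0.286, adjusted p = 0.381). The share of genes annotated as ribosomal RNA, the share of reads without a gene and the total on genes did not separate the doses either, with exact permutation p-values of 0.143, 0.257 and 0.514. Results are therefore also given without those 4 libraries, which leaves 2 mice at 10 mg and 3 in each of the other groups. Markers of the proximal tubule, the main cell type of the kidney cortex, summed to 29757 to 37620 CPM (counts relative to the size of each library) at 20 mg and 32206 to 36669 CPM at 10 mg. The marker of highest level in this sum was Kap, which is also on the list of genes of male bias.

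No gene passed the threshold of adjusted p under 0.1 between the doses in edgeR's quasi-likelihood test (0 of 17163 genes tested, 0%) or in limma-voom, and the log2 fold change of 20 against 10 mg, called the dose step below, had a 95% interval of ± 0.43 in the median gene. A smaller dose step lay within the error of a typical gene. At unadjusted p under 0.05, 595 genes (3.47%) were higher and 488 genes (2.84%) were lower at 20 mg. Over all genes tested the dose step was positive in 8481 and negative in 8682, with a median of -0.003. All 4 mice at 20 mg lay above all 4 at 10 mg in 292 genes (1.7%) and below them in 240 genes (1.4%). DESeq2's Wald test gave 12 genes at adjusted p under 0.1 (0.0986% of the 12170 genes it adjusted), 7 of them higher and 5 lower at 20 mg. Without the 4 libraries of low mitochondrial share edgeR again called 0 genes, with 497 higher and 381 lower at unadjusted p under 0.05.

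The 7 genes higher at 20 mg in DESeq2 were Mif, Gpx3, Cyp2a5, Acer2, Ucp2, Mt1 and Ecm1. These genes, those lower at 20 mg, those of smallest p and many list members named below were picked by this same comparison. Lack of overlap and intervals that leave out 1 follow in part from that choice, and the fold differences may be too large. The intervals are not adjusted for the number of genes. Mif (chr10:75695187-75696122, GRCm39), which encodes the cytokine macrophage migration inhibitory factor, had 115, 123, 130.3 and 150.3 CPM at 10 mg and 181, 171, 199 and 187 CPM at 20 mg in mice 1 to 4. The doses did not overlap, the difference was 1.42-fold (95% interval 1.21 to 1.68), and the control mice had 139.7 to 154 CPM, below all mice at 20 mg and overlapping the highest mouse at 10 mg. In the order of mice, Gpx3, the selenium-dependent glutathione peroxidase that the proximal tubule secretes into plasma, had 16766, 17846, 19461 and 20499 CPM at 10 mg and 26383, 28226, 31616 and 25850.2 CPM at 20 mg. That is a 1.5-fold difference (95% interval 1.16 to 1.95) without overlap, above a control mean of 20875 ± 3041 CPM (SD, n = 4). The DESeq2 adjusted p was 0.0265 for Mif and 0.0301 for Gpx3.

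Acer2 (chr4:86792537-86853061), an alkaline ceramidase of the Golgi that turns ceramide into sphingosine, had 8.57, 13.8, 8.85 and 12.3 CPM at 10 mg and 17.7, 22.9, 16.5 and 16.3 CPM at 20 mg. The control mean was 10.5 ± 0.529 CPM (SD, n = 4), close to the 10.9 ± 2.57 CPM at 10 mg, so the difference of 1.69-fold lay almost wholly between 10 and 20 mg. Ucp2, an uncoupling protein of the inner mitochondrial membrane and a target of PPAR, had 61.1, 86.3, 71.8 and 77.7 CPM at 10 mg and 125, 199, 144 and 100.4 CPM at 20 mg. Mt1, a metallothionein that binds zinc and is induced by metals and glucocorticoids, had 116, 111, 107 and 122 CPM at 10 mg and 149, 191, 240.0 and 154 CPM at 20 mg. All 4 mice at 20 mg exceeded all 4 at 10 mg in each of these genes, and the fold differences were 1.91 for Ucp2 and 1.61 for Mt1. For Ecm1, a secreted matrix protein, the means were 88.4 ± 4.09 CPM at 10 mg and 125 ± 16.2 CPM at 20 mg (SD, n = 4), beside 85.5 ± 9.85 CPM in the control group. Without the 4 libraries of low mitochondrial share the dose steps on the log2 scale were 0.40 for Mif, 0.49 for Gpx3, 0.55 for Acer2, 0.79 for Ucp2, 0.51 for Mt1 and 0.55 for Ecm1, against 0.51, 0.59, 0.76, 0.94, 0.69 and 0.50 with all libraries.

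**Figure D1:**
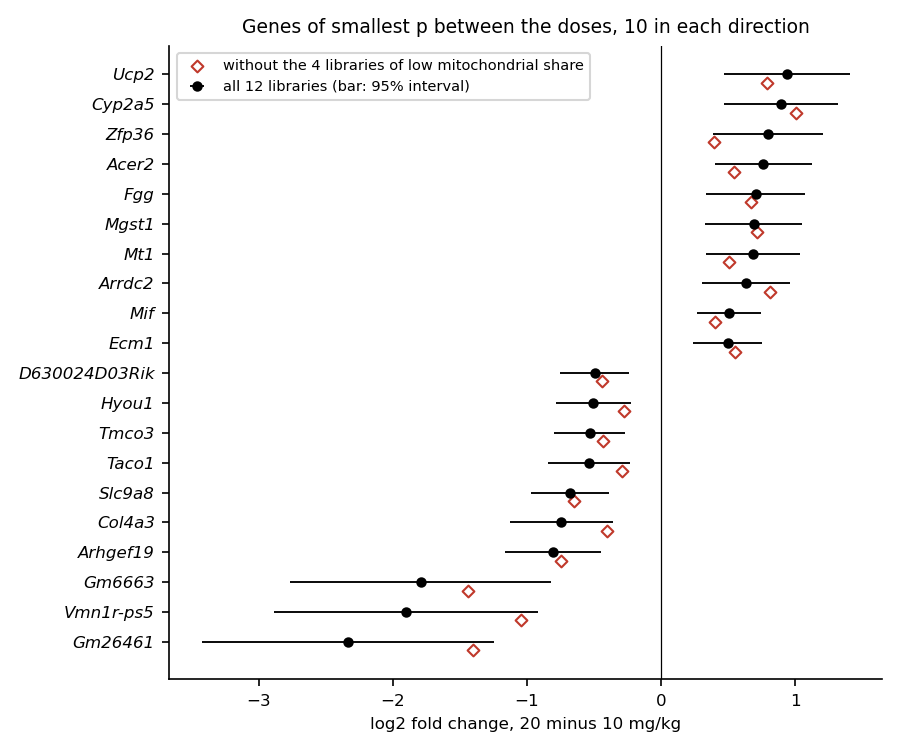
Dose step (log2 fold change of 20 against 10 mg) of the 10 genes of smallest p in each direction, as black points with 95% intervals for all 12 libraries and as open diamonds without the 4 libraries of low mitochondrial share. All 20 diamonds lie on the same side of 0 as their points, which the choice of the genes in these same mice favours. Those of Zfp36, Col4a3 and Gm26461 lie at 0.40, -0.41 and -1.40.

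The 5 genes lower at 20 mg in DESeq2 were Slc9a8, Arhgef19, Tmco3, Col4a3 and Gm26461. Slc9a8 (chr2:167263472-167318922), a sodium/proton exchanger, had the smallest p of all genes in edgeR (unadjusted p = 0.00018, adjusted p = 0.758) and 70.4, 56.9, 52.9 and 74.2 CPM at 10 mg against 37.0, 39.8, 34.4 and 47.9 CPM at 20 mg. Its control mice had 48.7 to 57.3 CPM, above all mice at 20 mg and overlapping mice 2 and 3 at 10 mg. Arhgef19, an exchange factor for small GTPases, had 16.5, 12.1, 13.5 and 12.3 CPM at 10 mg and 6.85, 6.94, 9.42 and 7.90 CPM at 20 mg, 0.571-fold, while the control mean of 14.4 ± 2.67 CPM (SD, n = 4) was like that at 10 mg. Neither gene overlapped between the doses, and their dose steps were -0.65 and -0.75 without the libraries of low mitochondrial share, against -0.68 and -0.81 with them. Tmco3, a membrane protein of the family of potassium/proton antiporters, had means of 62.0 ± 8.18 CPM at 10 mg and 42.9 ± 4.14 CPM at 20 mg (SD, n = 4).

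Col4a3 encodes a chain of the type IV collagen of the glomerular basement membrane, which Col4a4 and Col4a5 complete. Col4a3 had 513, 347, 335 and 251 CPM at 10 mg and 205, 222, 189.6 and 248 CPM at 20 mg, so that a wide spread at 10 mg met a narrow range at 20 mg. Col4a5, on chromosome X, had 31.5, 31.7, 26.0 and 26.6 CPM at 10 mg and 24.1, 20.8, 15.8 and 21.7 CPM at 20 mg. Col4a4 overlapped between the doses, with means of 351 ± 102 and 226 ± 30.6 CPM (SD, n = 4). The dose steps of the 3 chains were -0.74, -0.63 and -0.49 for Col4a3, Col4a4 and Col4a5, and -0.41, -0.28 and -0.39 without the libraries of low mitochondrial share. Col4a3 and Col4a4 lie head to head on chromosome 1 and overlap at their starts, and the strand setting of the counting is not given in the sources used here. Gm26461, a short non-coding RNA, had 13.4, 6.33, 8.81 and 3.35 CPM at 10 mg and 0.996, 2.75, 0.90 and 1.69 CPM at 20 mg. Its dose step of -2.33 became -1.40 without those libraries.

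The 10 genes of smallest p in each direction also held Zfp36, Mgst1, Arrdc2 and Fgg among those higher and Hyou1 and Taco1 among those lower at 20 mg. Zfp36, an RNA-binding protein that shortens the life of cytokine mRNAs, had 17.7, 31.3, 23.7 and 38.2 CPM at 10 mg and 38.7, 50.8, 55.3 and 47.5 CPM at 20 mg. Its dose step of 0.80 became 0.40 without the libraries of low mitochondrial share, and the low values at 10 mg were those of mice 1 and 3. Arrdc2, an arrestin domain protein that glucocorticoids induce, had means of 9.04 ± 0.698, 11.3 ± 2.03 and 17.6 ± 2.55 CPM (SD, n = 4) in the control, 10 mg and 20 mg groups, and its dose step was 0.63 with and 0.82 without those libraries. Mgst1, a microsomal glutathione transferase, and Fgg, the gamma chain of fibrinogen that injured tubules also make, were 1.61-fold and 1.63-fold higher at 20 mg. Hyou1, a chaperone of the endoplasmic reticulum, was 0.704-fold and did not overlap between the doses.

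Against the control group, 24 genes (0.14%) changed in the mean of both doses (edgeR, adjusted p under 0.1), 8 higher and 16 lower. Since all groups hold 4 mice, the dose step does not enter this contrast of the group means. The size and direction of the dose step thus did not pick the genes. Both contrasts rest on the same estimate of each gene's spread, however. A low estimate makes a gene easier to pick and also narrows the interval of its dose step. Of the 24, 5 had a dose step whose 95% interval lay beyond 0 in the direction of the change: Cyp2a5, Bhlhe41, Dbp and the long non-coding RNA A830021M18Rik, which were higher, and Rtl6, which was lower. In these the change at 10 mg was 37.3% to 81.8% of that at 20 mg on the log2 scale. In 17 genes, 4 higher and 13 lower, the upper limit of the dose step lay below the change already present at 10 mg, which was in the median 83.7% of that at 20 mg. The change at 10 mg is part of the value that picked these genes, and the intervals are not adjusted for their number, so this division is a description. Slc8a1 and Insc, both lower, could be put in neither class. The dose step went in the direction of the change in 23 of the 24 genes and in 53.0% of all genes tested. Without the 4 libraries of low mitochondrial share it did so in 22, with Insc no longer among them.

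**Figure D2:**
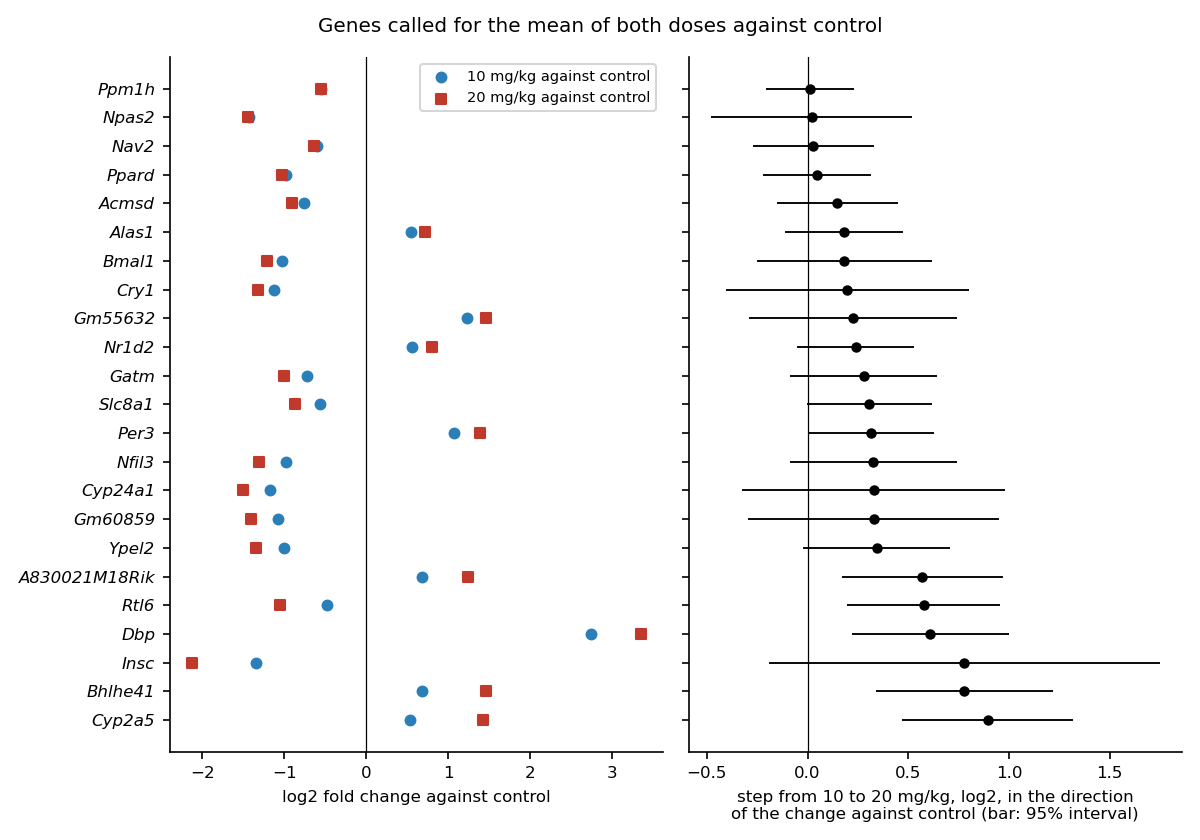
Left, log2 fold change against control at 10 mg (circles) and 20 mg (squares) of 23 of the 24 genes changed in the mean of both doses, and right, their dose step in log2 units in the direction of that change, with its 95% interval. Cyp2a5, Bhlhe41, Dbp, Rtl6 and A830021M18Rik have intervals above 0, and Ppm1h, Npas2, Nav2 and Ppard lie closest to 0.

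Cyp2a5 (chr7:26534730-26542973) had the largest dose step of the 24. It encodes a cytochrome P450 that oxidizes nicotine and coumarin and is induced by xenobiotics through several receptors. It had 99.6, 105, 136 and 129 CPM in the control mice, 166, 152, 227 and 134 CPM at 10 mg and 275, 222, 399.9 and 366 CPM at 20 mg. The dose step was 1.86-fold (95% interval 1.38 to 2.5), or 0.89 on the log2 scale after a first step of 0.53, with the highest mouse at 10 mg just above the lowest at 20 mg, and DESeq2 gave an adjusted p of 0.0569 between the doses. Cyp2a4, a nearly identical neighbour with which Cyp2a5 may share reads, had a dose step of 0.19. Rtl6, a retrotransposon-derived gene, fell from 12.5, 14.2, 10.3 and 11.1 CPM in the control group, with 10.9, 8.64, 8.13 and 6.93 CPM at 10 mg and 5.27, 4.79, 6.90 and 6.27 CPM at 20 mg. A830021M18Rik had 5.75, 5.34, 6.01 and 5.05 CPM at 10 mg and 7.44, 7.84, 9.84 and 7.79 CPM at 20 mg, against 2.62 to 4.58 CPM in the control mice.

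Bhlhe41 and Dbp are clock genes, whose levels depend on the hour of the day. The part of the hour of killing in their changes was not tested. Bhlhe41, a repressor that competes with Bmal1 for E-boxes, had 1.93, 1.43, 1.71 and 1.09 CPM in the control mice, 2.52, 2.31, 2.85 and 2.23 CPM at 10 mg and 4.22, 3.71, 4.68 and 4.46 CPM at 20 mg. No 2 of the groups overlapped, and the dose step was 1.72-fold (95% interval 1.27 to 2.33). Dbp, a transcription factor that binds D-box elements and carries the rhythm to genes of xenobiotic metabolism, had 1.43, 2.19, 2.92 and 2.88 CPM in the control mice, 14.9, 12.9, 19.6 and 15.3 CPM at 10 mg and 22.4, 22.1, 24.5 and 26.9 CPM at 20 mg. Both steps of Dbp were free of overlap, the first being 2.75 and the second 0.61 on the log2 scale, so 10 mg gave 81.8% of the change at 20 mg. Without the 4 libraries of low mitochondrial share the dose steps were 0.87 for Bhlhe41 and 0.76 for Dbp.

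Ppard, Ppm1h, Npas2 and Nav2, all lower than in the control group, had dose steps within 0.05 of 0. Ppard, the nuclear receptor PPAR-delta that governs the use of fatty acids, had 36.3, 34.9, 41.4 and 36.1 CPM in the control mice, 19.4, 18.6, 18.2 and 19.1 CPM at 10 mg and 16.7, 21.9, 19.0 and 15.2 CPM at 20 mg. Its treated mice lay far below every control mouse and mixed freely between the doses, with a ratio of 0.967 (95% interval 0.804 to 1.16). Ppm1h, a protein phosphatase, had 77.2, 84.0, 80.5 and 80.2 CPM in the control mice, 48.6, 57.9, 57.1 and 57.1 CPM at 10 mg and 58.5, 56.4, 50.5 and 53.5 CPM at 20 mg, a ratio of 0.992 (95% interval 0.853 to 1.15) between the doses. Npas2, the partner of Bmal1, had 24.3, 19.6, 29.4 and 24.5 CPM in the control mice, 9.10, 11.1, 6.69 and 9.63 CPM at 10 mg and 11.7, 11.9, 6.00 and 6.32 CPM at 20 mg. The interval of its ratio, 0.697 to 1.39, was wider than those of Ppard and Ppm1h. Nav2, a neuron navigator, had means of 87.1 ± 3.55, 57.3 ± 4.39 and 56.2 ± 12.0 CPM (SD, n = 4) in the control, 10 mg and 20 mg groups.

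A further 12 genes whose first step exceeded the dose step had dose steps of 0.15 to 0.34 in the direction of their change. Bmal1 had 28.0, 20.0, 19.7 and 20.1 CPM in the control mice, 10.9, 11.4, 9.17 and 11.9 CPM at 10 mg and 9.43, 12.7, 10.3 and 5.76 CPM at 20 mg, where mouse 4 at 20 mg was the lowest. Cry1, a repressor of the clock, fell from 6.69 ± 2.19 CPM to 3.07 ± 1.01 CPM at 10 mg and 2.68 ± 0.522 CPM at 20 mg (SD, n = 4). Nfil3, which represses through the same D-boxes that Dbp activates, had means of 9.18 ± 1.47, 4.65 ± 0.964 and 3.72 ± 0.527 CPM (SD, n = 4) in the control, 10 mg and 20 mg groups. Among the genes that rose, Per3 had 18.9, 20.6, 24.1 and 22.5 CPM at 10 mg and 22.1, 27.5, 26.1 and 31.1 CPM at 20 mg over a control mean of 10.2 ± 1.73 CPM (SD, n = 4), and Nr1d2, a repressor of Bmal1, had means of 49.7 ± 7.51, 73.2 ± 4.79 and 86.4 ± 13.4 CPM (SD, n = 4). Alas1, the first enzyme of haem synthesis, had means of 66.0 ± 7.19, 96.2 ± 16.1 and 109 ± 11.1 CPM (SD, n = 4).

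Outside the clock, this class held 3 metabolic enzymes of the proximal tubule. Gatm, which makes the precursor of creatine, had means of 331 ± 54.6, 200.3 ± 29.6 and 165 ± 33.1 CPM (SD, n = 4) in the control, 10 mg and 20 mg groups. Acmsd, an enzyme of tryptophan breakdown that limits the making of NAD, had means of 74.0 ± 6.30, 43.8 ± 4.51 and 39.5 ± 8.01 CPM (SD, n = 4). Cyp24a1, which inactivates vitamin D, had 45.3, 125, 56.3 and 75.2 CPM at 10 mg and 93.6, 57.7, 53.6 and 34.8 CPM at 20 mg, all below the 129 to 216 CPM of the control mice. The doses overlapped in all 3 genes. Slc8a1, the sodium/calcium exchanger of the distal tubule, had means of 87.0 ± 8.67, 58.9 ± 10.8 and 47.6 ± 6.76 CPM (SD, n = 4), and its dose step of -0.31 could not be told from 0 or from its first step of -0.56.

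**Figure D3:**
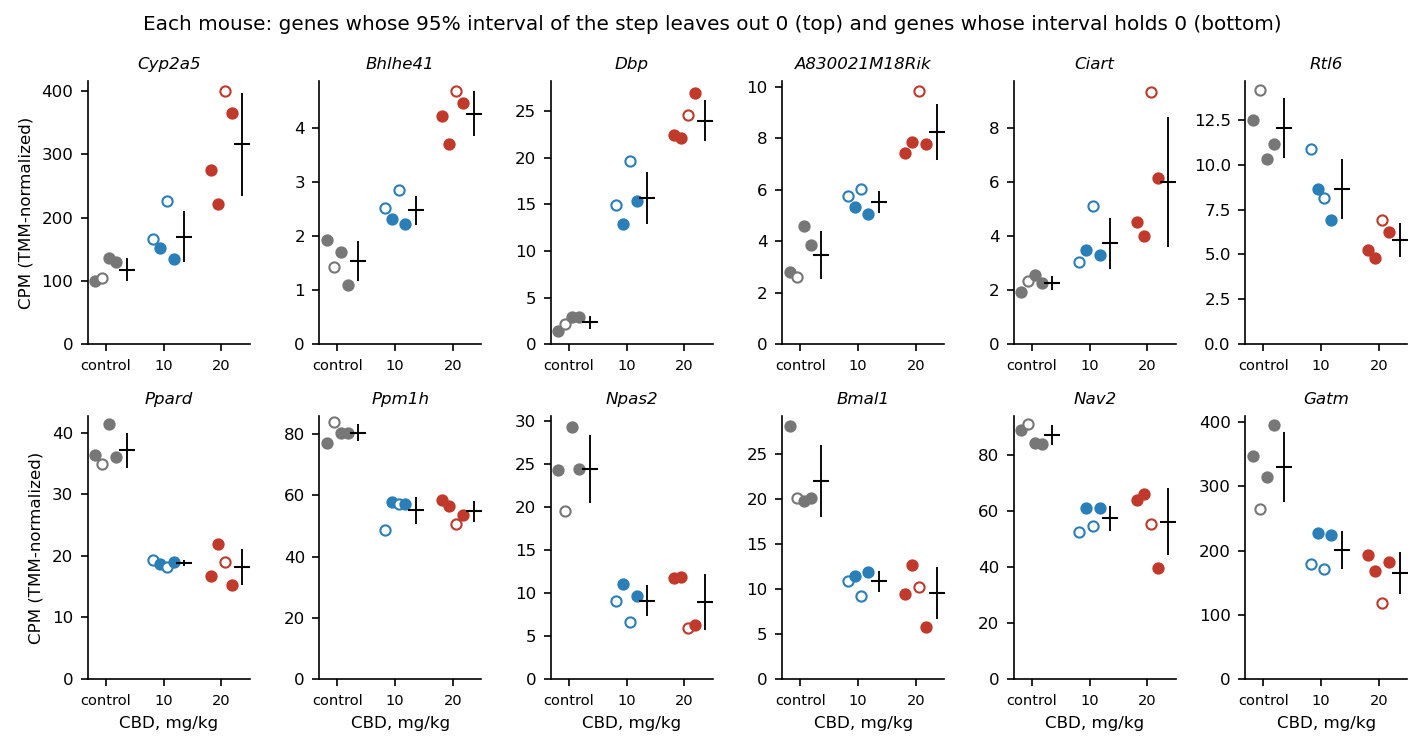
Level (CPM) of 12 genes in each mouse of the control, 10 mg and 20 mg groups, with 1 point per mouse, open for the 4 libraries of low mitochondrial share, and the group mean ± SD beside the points. In the upper row, where the interval of the dose step leaves out 0, Bhlhe41 and Dbp step up at each dose without overlap, and in the lower row the treated mice of Ppard and Ppm1h mix between the doses below all control mice.

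The promoters of 4 clock genes are shown because the groups of genes that did and did not step between the doses can be set beside the elements they carry. Each runs from 250 bases before to 50 bases after the start of the canonical GENCODE vM39 transcript in the GRCm39 genome, is written 5′ to 3′ on the gene's own strand, which is the minus strand in all 4, and has in capitals the E-box CACGTG or the D-box TTATGTAA, searched on both strands. Ciart (chr3:95789507-95789806) holds 3 E-boxes, Bhlhe41 (chr6:145811249-145811548) and Cry1 (chr10:85020900-85021199) hold 1 each, and Per3 (chr4:151129091-151129390) holds 2 D-boxes.
Ciart: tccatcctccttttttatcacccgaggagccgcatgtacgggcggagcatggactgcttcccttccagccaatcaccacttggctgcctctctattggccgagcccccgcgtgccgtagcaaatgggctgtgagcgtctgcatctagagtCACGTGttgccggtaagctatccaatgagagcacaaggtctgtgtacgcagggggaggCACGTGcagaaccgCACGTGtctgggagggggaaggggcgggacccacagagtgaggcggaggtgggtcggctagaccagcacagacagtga
Bhlhe41: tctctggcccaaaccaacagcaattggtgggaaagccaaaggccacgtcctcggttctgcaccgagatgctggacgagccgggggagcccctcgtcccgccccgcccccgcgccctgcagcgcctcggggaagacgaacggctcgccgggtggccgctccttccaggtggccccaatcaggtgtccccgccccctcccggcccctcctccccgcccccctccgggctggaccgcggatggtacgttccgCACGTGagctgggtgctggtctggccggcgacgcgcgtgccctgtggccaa
Cry1: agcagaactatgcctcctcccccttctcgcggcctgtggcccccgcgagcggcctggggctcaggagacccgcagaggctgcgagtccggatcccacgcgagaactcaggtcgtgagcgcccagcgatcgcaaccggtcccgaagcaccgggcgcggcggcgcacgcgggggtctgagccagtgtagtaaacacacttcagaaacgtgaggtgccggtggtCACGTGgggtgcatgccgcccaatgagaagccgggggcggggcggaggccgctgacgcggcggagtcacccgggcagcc
Per3: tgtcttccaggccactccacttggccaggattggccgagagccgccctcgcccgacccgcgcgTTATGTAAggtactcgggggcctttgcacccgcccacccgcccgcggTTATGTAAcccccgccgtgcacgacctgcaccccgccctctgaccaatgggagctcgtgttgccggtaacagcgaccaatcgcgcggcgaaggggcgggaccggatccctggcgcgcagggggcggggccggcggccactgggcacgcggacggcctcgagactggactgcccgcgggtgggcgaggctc

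Of 21757 promoters of protein-coding genes of this length, 7.82% held the E-box, 0.93% the D-box and 15.12% the letters AGGTCA, the core to which Nr1d1 and Nr1d2 bind. Among the 13749 promoters of genes tested here, the shares were 9.74%, 0.65% and 13.62% in the same order. The 24 genes changed in the mean of both doses included 21 protein-coding genes with a promoter here, of which 2 held the E-box, 1 the D-box and 6 AGGTCA. The E-box stood in 1 of the 4 that stepped (Bhlhe41) and in 1 of the 15 whose change was mostly present at 10 mg (Cry1), and AGGTCA in 1 and 5. A match is a description of the letters in this window, and Dbp, Npas2 and others may carry such elements outside it. Of the 11 clock genes driven by Bmal1, 4 held the E-box.

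Those 11 genes (Bhlhe41, Ciart, Cry2, Dbp, Hlf, Tef and the Nr1d and Per families) had a median dose step of 0.31, with 5 higher and 0 lower at unadjusted p under 0.05. Their median changes against the control group were 0.56 at 10 mg and 0.80 at 20 mg, and both doses share the 4 control libraries. Beside Bhlhe41 and Dbp, the 5 were Per1, Ciart and Nr1d1. Per1, a repressor that glucocorticoids also induce, had 42.8, 67.7, 54.5 and 63.5 CPM at 10 mg and 69.5, 90.8, 72.0 and 83.8 CPM at 20 mg, against 46.0 to 66.2 CPM in the control mice. It did not overlap between the doses, was 1.38-fold higher (95% interval 1.1 to 1.75) and at 10 mg lay at the control level. Ciart, a repressor of the clock with the 3 E-boxes printed above, had 1.93, 2.34, 2.57 and 2.28 CPM in the control mice, 3.05, 3.5, 5.10 and 3.29 CPM at 10 mg and 4.51, 4.01, 9.36 and 6.15 CPM at 20 mg, where mouse 3 at 10 mg lay above mice 1 and 2 at 20 mg. Nr1d1, the nuclear receptor REV-ERB-alpha, had 28.2, 58.1, 41.5 and 58.5 CPM at 10 mg and 78.5, 74.4, 40.1 and 75.9 CPM at 20 mg, where mouse 3 alone overlapped the lower dose. Per2, a partner of Per1, had means of 9.05 ± 1.67, 12.5 ± 2.08 and 15.2 ± 2.67 CPM (SD, n = 4) in the control, 10 mg and 20 mg groups, with overlap. Tef, Hlf and Cry2 had dose steps of 0.11, 0.14 and -0.05, and Tef had reached 168 ± 17.7 CPM at 10 mg from 119.8 ± 19.2 CPM in the control group, with 182 ± 24.9 CPM at 20 mg (SD, n = 4).

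The 6 genes listed for the Bmal1 arm, such as Bmal1, Npas2, Nfil3 and Cry1, had a median dose step of -0.10, with 0 higher and 0 lower at unadjusted p under 0.05, after a median change of -1.0 at 10 mg and -1.25 at 20 mg against the control group. The median dose step became 0.057 without mouse 4 at 20 mg and -0.20 without mouse 3 at 10 mg. Clock itself had means of 71.0 ± 14.2, 58.9 ± 17.1 and 66.6 ± 10.6 CPM (SD, n = 4) in the control, 10 mg and 20 mg groups, without a trend. Bmal1, Npas2, Nfil3 and Cry1 had thus come down at 10 mg, while 5 of the 11 genes driven by Bmal1 were higher at 20 than at 10 mg at the unadjusted level. The difference between these lists was not tested. As the hour of killing is not given in the sources used here, dose and time of day could not be separated in the clock genes. Of 20 clock-controlled genes outside the core loop, 3 were higher and 1 lower at unadjusted p under 0.05, with a median dose step of 0.12, or 0.059 without mouse 1 at 10 mg. Usp2, a deubiquitinase under the clock, had 118, 119, 116 and 123 CPM at 10 mg and 124, 141, 227 and 168 CPM at 20 mg, without overlap, and Upp2, a uridine phosphorylase, was 1.47-fold higher.

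**Figure D4:**
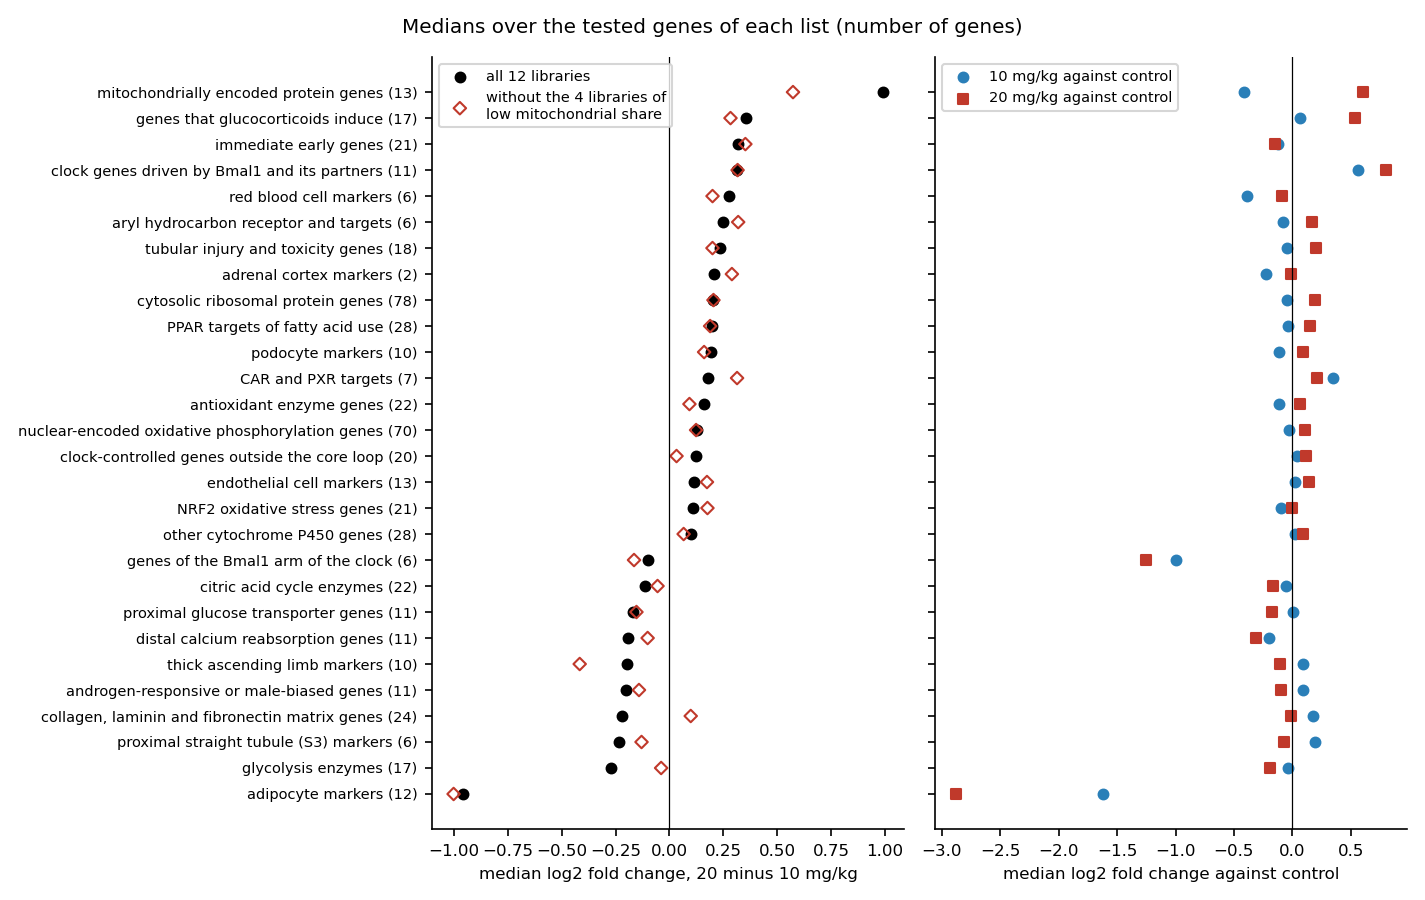
Left, median dose step (log2) over the tested genes of each described list, with all 12 libraries (black) and without the 4 libraries of low mitochondrial share (open diamonds), and right, median log2 fold change against control at 10 mg (circles) and 20 mg (squares). The matrix list crosses 0 without those libraries, and the glucocorticoid-induced genes have medians of 0.07 at 10 mg and 0.54 at 20 mg against control.

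Genes that glucocorticoids induce lay mostly higher at 20 than at 10 mg, with a median near 0 at the lower dose. Of 17 tested, 7 were higher and 0 lower at 20 mg at unadjusted p under 0.05, the median dose step was 0.35, and the medians against the control group were 0.07 at 10 mg and 0.54 at 20 mg. Mt1 and Per1, described above, belong to this list. Ddit4, an inhibitor of mTORC1, had 11, 12.4, 14.0 and 23.0 CPM at 10 mg and 24.7, 27.4, 27.3 and 25.1 CPM at 20 mg, with control mice at 8.16 to 16.1 CPM. The doses did not overlap, and the difference was 1.73-fold (95% interval 1.24 to 2.42). Cebpd, a transcription factor of the acute response, had 2.96, 5.61, 3.16 and 5.75 CPM at 10 mg and 7.38, 12.2, 5.64 and 6.55 CPM at 20 mg, with an overlap. Fkbp5, the co-chaperone that limits the glucocorticoid receptor, had means of 59.5 ± 14.1, 85.6 ± 16.6 and 97.8 ± 16.6 CPM (SD, n = 4) in the control, 10 mg and 20 mg groups, and its dose step was 0.19. Without the 4 libraries of low mitochondrial share 8 of the 17 were higher and 0 lower, with a median dose step of 0.28, and Fkbp5, with a dose step of 0.42, was then among the 8.

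Immediate early genes, which cells switch on within minutes of a stimulus, had a median dose step of 0.32, with 5 of 21 higher and 1 lower at unadjusted p under 0.05, and the median was 0.16 without mouse 3 at 20 mg. Their medians against the control group were -0.12 at 10 mg and -0.15 at 20 mg. Beside Zfp36, Klf2, a factor of the endothelium that answers to blood flow, had means of 9.90 ± 1.34, 13.2 ± 1.85 and 19.1 ± 4.82 CPM (SD, n = 4), and Klf4, a related factor, had 6.23 ± 1.72, 6.23 ± 1.91 and 10.6 ± 4.33 CPM. Ier3, which protects cells from death, had means of 21.8 ± 1.20, 14.9 ± 2.13 and 19.5 ± 3.41 CPM (SD, n = 4), lowest at 10 mg, and its dose step of 0.39 became 0.16 without the libraries of low mitochondrial share.

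Mitochondrially encoded genes had a median dose step of 0.99, positive in 13 of 13, with 1 higher at unadjusted p under 0.05, mt-Nd4l. These genes are the same that set the libraries apart, with a median of -0.41 at 10 mg and 0.60 at 20 mg against the control group. Without the 4 libraries of low share their median dose step was 0.57, with 7 of 13 higher and 0 lower at unadjusted p under 0.05. It was 0.65 without mouse 1 at 10 mg. Of 70 nuclear-encoded genes of oxidative phosphorylation, 10 were higher and 1 lower with all 12 libraries. Their median dose step was 0.13. It was 0.12 without the 4 libraries of low share, with 5 higher and 0 lower, and -0.06 without mouse 3 at 20 mg alone. Cox6a1, a subunit of complex IV, had 300.0, 291, 334 and 319 CPM at 10 mg and 331, 459, 652 and 463 CPM at 20 mg, highest in that mouse. Of 78 ribosomal protein genes, 16 were higher and 0 lower, 72 had a positive dose step, and the median was 0.20. Without the libraries of low share the median was again 0.20, with 8 higher, and without mouse 3 at 20 mg alone it was 0.098. Many ribosomal protein genes have near-identical pseudogenes with which reads may be shared, and their changes against the control group had medians of -0.04 at 10 mg and 0.19 at 20 mg.

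Short genes were more often higher at 20 mg at the unadjusted level. The share of genes higher at unadjusted p under 0.05 was 7.06% of genes with less than 1 kb of exon, 5.95% from 1 to 2 kb, 4.51% from 2 to 4 kb, 3.03% from 4 to 8 kb and 1.65% above 8 kb. The share of genes lower was 4.14%, 2.76%, 2.28%, 2.68% and 3.17% in the same order. The genes higher had a median exon length of 3595 bases, the genes lower 5674 bases and all genes tested 5401 bases. Ribosomal protein genes and genes of oxidative phosphorylation are short, and the part of length in their dose steps was not tested.

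**Figure D5:**
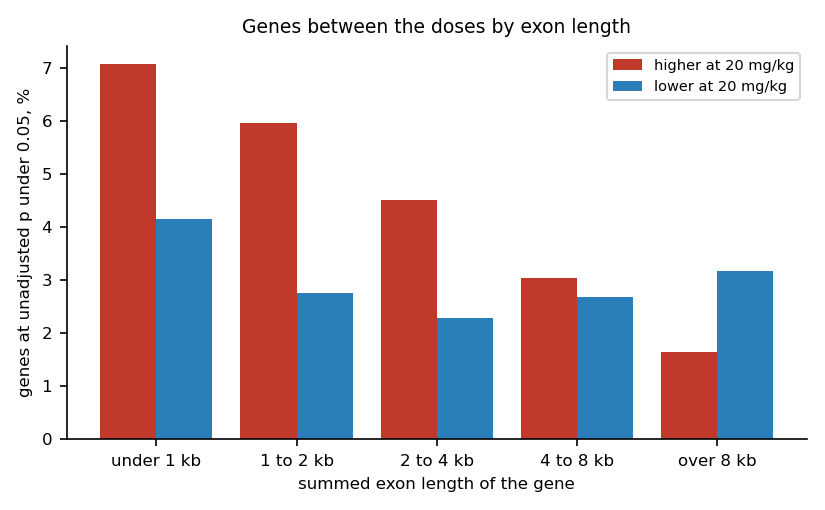
Share of genes (percent) higher and lower at 20 than at 10 mg at unadjusted p under 0.05, in 5 bins of exon length in kb. The share of genes higher goes from 7.06% in the shortest bin to 1.65% in the longest.

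Of 22 antioxidant enzyme and selenoprotein genes 21 had a positive dose step, with a median of 0.16. That median became 0.013 without mouse 3 at 20 mg, and Gpx3 was the member with p under 0.05. Of 21 genes listed for Nrf2 and oxidative stress, 4 were higher and 0 lower, with a median of 0.11, or 0.058 without mouse 1 at 20 mg. Gsta2, a glutathione transferase, had 226, 255, 172 and 218 CPM at 10 mg and 312, 291, 358 and 327 CPM at 20 mg, without overlap, and the control mice had 236 to 333 CPM. Hmox1, which breaks down haem, had 26.4, 33.3, 37.2 and 28.9 CPM at 10 mg and 37.9, 59.7, 39.6 and 40.7 CPM at 20 mg, against 45.5 to 73.9 CPM in the control mice, so that it was lowest at the lower dose. Abcc4, an exporter of organic anions, had the same form, with means of 72.4 ± 16, 49.1 ± 6.91 and 71.4 ± 15.4 CPM (SD, n = 4) in the control, 10 mg and 20 mg groups.

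Among cytochrome P450 genes other than Cyp2a5, 3 of 28 were higher and 0 lower at unadjusted p under 0.05, with a median dose step of 0.10, or 0.048 without mouse 3 at 20 mg. Cyp2d22 had 31.3, 32.1, 36.3 and 30.1 CPM at 10 mg and 41.5, 43.5, 48.4 and 38.9 CPM at 20 mg, a 1.33-fold difference without overlap over control mice at 26.3 to 30.0 CPM. Cyp2d9 had means of 182 ± 8.26, 215 ± 28.2 and 274 ± 65.8 CPM and Cyp2j9 of 30.8 ± 5.02, 34.4 ± 3.56 and 43.8 ± 6.07 CPM (SD, n = 4), and both belong to gene families whose members may share reads. Members of the Cyp2d and Cyp2j families oxidize drugs or arachidonic acid. Of 6 genes listed for the aryl hydrocarbon receptor and its targets 2 were higher, with a median dose step of 0.25 that became 0.074 without mouse 1 at 20 mg and 0.060 with low mitochondrial share as a factor, a setting chosen after seeing the data. They were Cyp1b1, at 36.6 ± 5.32 CPM at 10 mg and 52.0 ± 9.45 CPM at 20 mg over 33.7 ± 7.47 CPM in the control group (SD, n = 4), and Ugt1a6a, a glucuronosyltransferase that shares exons with its family, at 1.25 ± 0.346 and 2.08 ± 0.639 CPM (SD, n = 4). Of 7 targets of CAR and PXR, the receptors of drug induction, Cyp2a5 alone passed the unadjusted level, and the median of 0.18 became -0.02 without mouse 4 at 20 mg.

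Of 28 PPAR targets of fatty acid use, 1 was higher (Ucp2) and 1 lower (Cd36, a fatty acid carrier), with a median dose step of 0.20 (0.116 without mouse 2 at 20 mg), beside the ratio of 0.967 for Ppard itself. Among 18 genes of tubule injury 5 were higher and 0 lower, with a median of 0.24, or 0.097 without mouse 3 at 20 mg. Vcam1, an adhesion molecule, had 7.82, 8.91, 8.22 and 9.10 CPM at 10 mg and 11.8, 15.0, 14.1 and 11.6 CPM at 20 mg, a 1.54-fold difference without overlap. Gdf15, a stress cytokine, had 2.23 ± 0.401 CPM at 10 mg and 3.98 ± 1.19 CPM at 20 mg, with 3.06 ± 1.30 CPM in the control group (SD, n = 4). Havcr1, the injury marker KIM-1 of the proximal tubule, had a dose step of -0.80 that did not pass the unadjusted level.

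Lists with a negative median dose step were genes of the extracellular matrix (-0.22, 1 of 24 higher and 6 lower), glycolysis (-0.27, 0 of 17 higher and 1 lower), glucose transport (-0.17, 0 of 11 higher and 2 lower), the citric acid cycle (-0.11, 0 of 22 higher and 0 lower), distal calcium transport (-0.19, 0 of 11 higher and 0 lower) and genes of male bias (-0.20, 0 of 11 higher and 2 lower). The matrix list had a median of 0.18 at 10 mg and -0.01 at 20 mg against the control group, and without the 4 libraries of low mitochondrial share its median dose step turned to 0.10, with 1 higher and 2 lower, and without mouse 1 at 10 mg alone it was -0.010. The median of the glycolysis list was -0.04 without those libraries and -0.17 without mouse 1 at 10 mg, that of the citric acid cycle -0.051 without mouse 2 at 20 mg, and that of distal calcium transport -0.041 without mouse 2 at 10 mg. Among male-biased genes, the transporters Slc22a30 and Slco1a1 did not overlap between the doses, with 65.1 to 82.9 CPM at 10 mg against 45.3 to 58.9 CPM at 20 mg for Slc22a30 and 206 to 275 CPM against 138 to 194 CPM for Slco1a1, whose control mice had 136 to 180.4 CPM. The other 21 lists of pathways had medians from -0.10 to 0.09, among them 5 lower of 19 in the list of endoplasmic reticulum stress, in which Hspa5, the chaperone BiP, had a dose step of -0.56. When the 4 libraries of low mitochondrial share were left out, the list had 1 higher and 1 lower of 20, and the dose step of Hspa5 was -0.33.

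Among the lists of cell type markers, that of adipocytes had the median dose step farthest from 0. In whole kidney, fewer cells of a type and less RNA per cell cannot be told apart. Adipocyte markers had a median dose step of -0.96 (-1.78 without mouse 4 at 20 mg), with 0 of 12 higher and 1 lower at unadjusted p under 0.05, after medians of -1.62 at 10 mg and -2.88 at 20 mg against the control group. Their median dose step was -0.76 without mouse 1 at 20 mg and -0.52 with sample quality weights in limma-voom. It was only -0.12 over members with at least 10 counts in every library, so its size depended on members of low count. Their summed level was 161 to 400 CPM in the control mice, 116 to 217 CPM at 10 mg and 105 to 170 CPM at 20 mg, most of it Fabp4, so the doses overlapped. Adipoq, the adipokine of fat cells, had 10.5, 19.2, 1.06 and 14.5 CPM in the control mice, 6.98, 5.94, 0.0452 and 1.88 CPM at 10 mg and 0, 1.44, 0.12 and 2.60 CPM at 20 mg. Car3, a carbonic anhydrase of fat and muscle, had 39.6, 41.1, 16.5 and 18.2 CPM at 10 mg and 12.7, 13.6, 9.66 and 21.7 CPM at 20 mg, a ratio of 0.5 (95% interval 0.294 to 0.851). The part of fat cells in the results above was not tested.

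The 10 markers of the thick ascending limb all had a negative dose step, with a median of -0.20 and 1 of 10 lower at unadjusted p under 0.05, Umod, and the median was -0.42 with 7 lower without the libraries of low mitochondrial share but -0.042 without mouse 4 at 10 mg. Umod, the gene of uromodulin, had 665, 680.5, 523 and 798 CPM at 10 mg and 541, 489.7, 384 and 587 CPM at 20 mg, with 407 to 626 CPM in the control mice. The 6 markers of the straight proximal tubule were also negative in all 6, with a median of -0.23, or -0.12 without mouse 1 at 10 mg, and 0 of 6 past the unadjusted level. Podocyte markers had a median of 0.19 with 1 of 10 higher (Wt1, a transcription factor of the podocyte, 1.37-fold), and endothelial markers had a median of 0.11 with 2 of 13 higher (Eng, a co-receptor of TGF-beta, 1.37-fold, and Emcn, a surface sialomucin, 1.29-fold). These medians became 0.070 for podocytes without mouse 2 at 20 mg and 0.014 for endothelium without mouse 3 at 20 mg. Markers of red blood cells had a median of 0.28, or 0.090 without mouse 3 at 20 mg, with 0 of 6 past the unadjusted level, and those of the adrenal cortex 0.21 over the 2 genes tested, or 0.10 without mouse 1 at 20 mg. The other 5 marker lists had medians from -0.09 to 0.06. The lowest was that of the proximal tubule, with 0 of 12 higher and 2 lower at unadjusted p under 0.05.

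The second step (20 against 10 mg) was also set against the first (10 mg against control), where a difference of 0 stands for a change linear in dose on the log2 scale. In edgeR 0 genes (0%) passed an adjusted p under 0.1, 943 had an unadjusted p under 0.05, and the smallest adjusted p was 0.129, that of Dbp, whose second step was 2.14 log2 units smaller than its first. DESeq2 called 1 gene, Dbp (adjusted p = 7.43e-06). The 52 genes changed at 20 mg against control (0.303%, edgeR adjusted p under 0.1) had a median difference of -0.08 in the direction of their change, with 21 positive and 31 negative, while 50.5% of all genes were positive. This median ranged from -0.66 without mouse 2 of the control group to 0.19 with the mitochondrial share as covariate, each over the genes called there, so its sign depended on the setting. Ppard was among the 5 genes of smallest p with a positive difference. It fell and had reached its level at 10 mg, so its second step was also smaller than its first. Of the remaining genes of smallest p, Nuak2 and Tgm1 had their highest mean at 10 mg, and Krt222, Hmox1, Gsta2 and Ier3 their lowest. Nuak2, a kinase related to AMPK, had 36.7, 40.5, 29.9 and 47.4 CPM in the control mice, 70.4, 47.1, 87.6 and 66.3 CPM at 10 mg and 41.6, 41.8, 51.3 and 43.3 CPM at 20 mg, and its dose step was -0.61, or -0.42 without the libraries of low mitochondrial share. Tgm1, a transglutaminase, had means of 14.1 ± 3.07, 27.6 ± 7.95 and 19.0 ± 3.35 CPM (SD, n = 4), with a dose step of -0.54 that became -0.13 without those libraries, and the keratin gene Krt222 had 2.37 ± 0.389, 1.20 ± 0.342 and 2.26 ± 0.251 CPM.

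Other genes that the study had named as altered showed dose steps of either sign. Decr2 and Hacl1, enzymes of peroxisomal fatty acid oxidation, had means of 65.0 ± 11.9, 74.2 ± 9.62 and 92.8 ± 11.4 CPM and of 6.91 ± 0.765, 11 ± 3.24 and 13.1 ± 2.19 CPM (SD, n = 4) in the control, 10 mg and 20 mg groups. All 4 mice at 20 mg lay above all 4 at 10 mg for Decr2 and for Foxo3, a transcription factor restrained by insulin, with 55.8 to 70.5 CPM at 10 mg and 72.4 to 77.7 CPM at 20 mg. Pck1, the entry enzyme of gluconeogenesis, had means of 3199 ± 619, 4673 ± 555 and 5012 ± 684 CPM (SD, n = 4), and its dose step of 0.10 had a p of 0.572. Gjb2, the gap junction protein connexin 26, and Sphk1, which makes sphingosine 1-phosphate, had dose steps of 0.16 and 0.34 with overlap. Cxcr4 and Ccl28, a chemokine receptor and a chemokine, had their highest means at 10 mg, 4.12 ± 1.19 and 5.79 ± 1.34 CPM, with 3.05 ± 0.371 and 4.56 ± 0.708 CPM at 20 mg (SD, n = 4) and dose steps of -0.44 and -0.34.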

How the data were processed

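Poly(A) RNA of 12 kidneys, 1 per mouse, was sequenced in 3 groups of 4. The authors checked reads with FastQC 0.11.9, trimmed them with Flexbar, mapped them with STAR 2.7.5c to GRCm39 and counted them with HTSeq (tools and versions per the labels and the study's methods). The deposited files hold raw counts per Ensembl gene, without normalization. The annotation release, strand setting and use of molecular identifiers are not given in the sources used here, so repeated reads of 1 molecule may be counted and intervals may understate the error of low counts. The summary lines of the counting tool were dropped. Of 57180 identifiers, 56620 (99.02%) matched GENCODE vM39 (release M39, GRCm39), with 99.952% of the counts, and 0 pairs of libraries were identical.

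Genes were kept with filterByExpr, which left 17163, and normalized by TMM. The counts of all 12 libraries were fitted with a mean per group in edgeR 4.0.16 (R 4.3.3, quasi-likelihood test, Benjamini-Hochberg adjustment over all genes, threshold 0.1 as in the study). Alternatives used DESeq2 1.42.0, limma 3.58.1 and other filters, normalizations, covariates and libraries. The code was tested on simulated data with known changes. Lists were described by counts and medians, without a test. The 4 library values were compared by exact permutation tests. The p-values of edgeR set a difference of group means against the spread between mice of the same group, estimated over all 12 libraries. Each group held 4 mice.

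Genes named are members of the clock lists, the 10 of smallest p between the doses in each direction, those called by DESeq2, those called in the mean of both doses, up to 4 members of smallest p per described list, the 5 of smallest p in each direction for the difference of steps, and genes the study names as altered. Lists were described where their median dose step lay at least 0.1 from that of all genes, with the clock lists always. Cyp2a4 and Havcr1, list members outside this rule, were named after their values were seen. Kap and Fabp4 were named as the markers of highest level in their sums. A gene that the rule names is not reported here. The genes, lists and comparisons were chosen with earlier results of these data known.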

Additional observations from a re-analysis of the deposited data

Results flagged for a closer look

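In groups of 4 mice, the gap of the lowest or highest mouse to its neighbour was compared with the range of the group for 44 genes and 4 library values, and 3 of 96 groups of treated mice had a gap above Dixon's 95% critical value. Chance passes this limit in about 1 in 20 groups, so the number of such groups is no more than chance gives. The first is Ppm1h, in which mouse 1 at 10 mg had 48.6 CPM and the others 57.1 to 57.9 CPM. The next is A830021M18Rik, in which mouse 3 at 20 mg had 9.84 CPM and the others 7.44 to 7.84 CPM. The last is the total on genes, which was 16306563 in mouse 3 at 20 mg and 18045399 to 18219064 in the others of its group. Mouse 1 at 10 mg and mouse 3 at 20 mg are also among the libraries of low mitochondrial share.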

How the results depend on the processing

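No gene was called between the doses by edgeR with RLE or upper-quartile normalization, by limma-voom, in libraries of only the groups compared, with each library left out, or without the libraries of low mitochondrial share. DESeq2 called 12 genes between the doses, 136 in the mean of both doses (24 by edgeR) and 1 for the difference of the steps. Without a filter on low counts the numbers were 256 (161 higher, 95 lower), 393 and 277, and the median dose step of the genes of both doses was 0.064 instead of 0.29. With the log2 mitochondrial share as covariate they were 29 (26 higher, 3 lower), 184 and 1, and the median difference of steps of genes called at 20 mg was 0.19 instead of -0.08. Without the 4 libraries of low mitochondrial share, 67 and 1 genes were called in the mean of both doses and for the difference of the steps, with a median dose step of 0.10. With low share as a factor, chosen after seeing the data, they were 125 and 1, with a difference of steps of 0.061. Sample quality weights in limma-voom gave 109 genes in the mean of both doses, adjusted p under 0.05 gave 13 with a difference of -0.32, and an absolute log2 fold change of at least 1 gave 13 with -0.36. The replicate numbers did not pair the mice, since mice of the same number at 10 and 20 mg correlated at -0.33, 0.232, 0.317 and -0.072 in their deviations from the group means. A replicate block called 0 genes between the doses and 17 in the mean of both doses, with a median dose step of 0.30 and a difference of steps of -0.27. Leaving out each library in turn, 0 genes were called between the doses, 8 to 35 in the mean of both doses and 0 for the difference of the steps. The median dose step was 0.156 to 0.36 and the median difference of steps -0.659 to -0.00306. The lowest of these counts was without mouse 1 of the control group, the lowest dose step without mouse 4 at 20 mg, and the lowest difference of steps without mouse 2 of the control group. With the 24 genes held fixed, the median dose step was 0.236 to 0.359 over the alternatives, positive in 19 to 23 genes, fewest without mouse 2 at 10 mg. The cause of these differences was not tested. With 4 mice a group, the median interval of ± 0.43 limits what can be seen between the doses.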
